A study of Homo sapiens with 6 samples.

Results

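The members were taken by gene symbol: the cytosolic HSP70 genes HSPA1A, HSPA1B, HSPA1L, HSPA2, HSPA4, HSPA4L, HSPA6, HSPA8 and HSPA14, and the pseudogene HSPA7. These 10 symbols stand on 11 of the 58735 rows of the expression table, because HSPA14 names 2 overlapping gene models. The family was chosen by its contrast between TRPV3 and mock libraries, in which HSPA6 stood out, so every difference between these groups is given below as a description. The cells were SZ95, an immortalised human sebaceous gland line. Per the genotype labels they were TRPV3 overexpressing or WT. They received a plasmid that overexpresses TRPV3, a calcium-permeable cation channel opened by warmth (3 libraries), or a mock plasmid (3 libraries), and the labels give 24 h for both. Both groups were thus transfected, no untransfected cells were analysed here, and the whole study rests on a single line. The stated question was what TRPV3 does in inflammation of sebocytes, and the replicates are stated to be biological.

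The HSP70 family consists of ATP-driven chaperones that bind exposed hydrophobic stretches of other proteins, hold them and release them for folding. J-domain proteins bring clients and stimulate the ATPase, and nucleotide exchange factors reset the cycle. Some members are made constitutively, while others are silent or low until heat shock factor 1 (HSF1) is released by proteotoxic stress and drives their promoters. In skin, cells of the epidermis and its appendages are among those that meet heat, ultraviolet light and inflammatory stress.

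The libraries held 17.4 to 18.4 M reads with the TRPV3 plasmid and 16.0 to 17.5 M reads with the mock plasmid, recovered from the deposited FPKM, a level corrected for gene length and sequencing depth. TRPV3 itself, which checks the labels, was at 536, 671 and 738 FPKM in the TRPV3 libraries, against 0.437, 0.359 and 0.415 FPKM in the mock libraries. Of 12 sebocyte markers 7 reached a mean of 1 FPKM, among them KRT7, SCD, FASN and PPARG, while the lipid enzyme gene AWAT2 had no read. The 6 keratinocyte markers, an epithelial list, summed to 165 to 178 FPKM in TRPV3 libraries and 158 to 190.4 FPKM in mock libraries, most of it KRT5. Summed fibroblast markers lay at 2.05 to 2.20 FPKM in TRPV3 libraries and 2.37 to 2.87 FPKM in mock libraries. Immune, melanocyte and endothelial markers each summed to less than 2 FPKM in every library. TRPV3 replicate 1 stood apart: its log2 values fell by 0.080 per doubling of gene length relative to the average library, while those of the other 5 libraries rose by 0.0023 to 0.034. Mock replicate 3 had reads for 34467 genes, where the others had reads for 22311 to 23072.

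Upstream sequences are shown for HSPA6, HSPA1A, HSPA1B and HSPA8, the members with an intact coding frame whose TRPV3 libraries all lay above the mock libraries. They are from RefSeq (GRCh38.p14), written 5′ to 3′ on the gene's strand. Capitals mark inverted repeats of the heat shock element unit, searched on both strands as GAANNTTC and TTCNNGAA (2 units) and GAANNTTCNNGAA and TTCNNGAANNTTC (3 units), each of which contains matches to the shorter forms. HSPA6 is chr1:161524290-161524539 on the plus strand, directly before its start. HSPA1A is chr6:31815293-31815463 on the plus strand and HSPA1B is chr6:31827488-31827734 on the plus strand, both cut where the annotated exon begins. HSPA8 is shown as 2 stretches of 30 bases on the minus strand, chr11:123062345-123062374 and chr11:123062170-123062199, because the window before its RefSeq start lies within exons of longer annotated transcripts.
HSPA6: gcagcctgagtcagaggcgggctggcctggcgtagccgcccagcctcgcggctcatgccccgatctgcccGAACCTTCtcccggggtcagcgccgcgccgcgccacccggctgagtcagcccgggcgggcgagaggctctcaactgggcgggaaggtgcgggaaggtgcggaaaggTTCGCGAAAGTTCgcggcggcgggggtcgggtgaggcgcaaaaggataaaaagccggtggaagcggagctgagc
HSPA1A: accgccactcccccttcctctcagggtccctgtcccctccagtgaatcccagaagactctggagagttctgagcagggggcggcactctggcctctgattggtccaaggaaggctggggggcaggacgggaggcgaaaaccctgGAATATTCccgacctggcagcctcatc
HSPA1B: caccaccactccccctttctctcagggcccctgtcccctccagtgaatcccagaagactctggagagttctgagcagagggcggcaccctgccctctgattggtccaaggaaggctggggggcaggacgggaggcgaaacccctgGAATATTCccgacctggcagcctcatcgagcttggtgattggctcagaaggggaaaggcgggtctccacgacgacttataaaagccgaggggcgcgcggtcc
HSPA8 stretch 1: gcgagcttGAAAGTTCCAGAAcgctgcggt
HSPA8 stretch 2: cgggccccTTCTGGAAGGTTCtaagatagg

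HSPA6 held a 3-unit match with its nearest base 62 bases before the start, and a separate 2-unit match whose farthest base was 180 bases before it. HSPA8 held 2 matches of 3 units, the nearest 43 bases before its RefSeq start. HSPA1A and HSPA1B carried the same 2-unit match, and their upstream sequences were identical at 95.9% of 171 aligned bases. The HSPA1A match is also the match in the window of HSPA1L, which lies head to head with HSPA1A with 398 bases between them. Windows of 300 bases (250 before and 50 after a RefSeq start) were found for 8 of the 10 symbols. These 8 genes had 10 windows, since a gene can have several starts. A 2-unit match was in 6 of the 10 windows (60%) and a 3-unit match in 2 (20%), those of HSPA6 and HSPA8. Over all 35116 promoter windows the shares were 13.5% and 0.490%. The known HSF1 targets outside the family had 33 windows, of which 39.4% held a 2-unit match and 15.2% a 3-unit match. A match is a description of letters, not a bound site.

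HSPA6 encodes HSP70B′, an HSP70 that human cells make almost only under stress and that mice lack. It is a gene without introns (ENSG00000173110, chr1:161524540-161526910, plus strand, hg38, a single exon of 2371 bases). Its level was 12.6, 10.4 and 11.1 FPKM in the TRPV3 libraries, against 0.792, 0.728 and 0.602 FPKM in the mock libraries. The lowest TRPV3 library stood 9.63 FPKM above the highest mock library. These values rest on 528, 442 and 461 reads with TRPV3 and 33, 28 and 26 reads with mock. The ratio of summed reads, scaled for depth, was 16.1 (95% interval 13.0 to 20.3, counting error only). The fitted log2 fold change of FPKM + 1 was 2.86 (SE 0.10). That scale compresses genes near 1 FPKM, so the fit lies below the ratio of mean FPKM, which was also 16.1. The mean was 11.4 ± 1.13 FPKM with TRPV3 and 0.707 ± 0.0969 FPKM with mock (SD, n = 3 each), so HSPA6 reached the filter of 1 FPKM only through the TRPV3 libraries. A few cells at a high level and many at a low level cannot be told apart in bulk RNA.

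HSPA7 is an unprocessed pseudogene copy of HSPA6 (ENSG00000225217, chr1:161606291-161608217, plus strand). It had 20, 13 and 16 reads in TRPV3 libraries and 2, 2 and 0 reads in mock libraries, so the groups did not overlap. The ratio of summed reads was 12.0, with a wide counting interval of 4.40 to 45.8. Transcripts of HSPA6 and HSPA7 were identical at 98.6% of 1926 aligned bases, and 45.5% of the 50-base stretches of HSPA6 also occur in HSPA7. HSPA7 reads amounted to 3.79%, 2.94% and 3.47% of HSPA6 reads in TRPV3 libraries and 6.06%, 7.14% and 0% in mock libraries. Whether HSPA7 was transcribed or took reads of HSPA6 was not tested. With the reads of both summed, the log2 fold change was 2.94. Genes beside HSPA6 were near 0: FCGR2A, an Fc receptor gene that ends 526 bases before it, had 1, 2 and 0 reads with TRPV3 and 0, 0 and 7 reads with mock.

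HSPA1A and HSPA1B encode the main stress-inducible HSP70 and lie in tandem on chromosome 6, at 31815464 to 31817946 and 31827735 to 31830255. HSPA1A was at 97.9, 83.7 and 85.0 FPKM in TRPV3 libraries, against 65.2, 65.4 and 64.0 FPKM in mock libraries. HSPA1B was at 49.1, 51.0 and 50.4 FPKM in TRPV3 libraries, against 36.7, 37.5 and 36.3 FPKM in mock libraries. For both genes the lowest TRPV3 library was above the highest mock library. The mean of HSPA1A was 37.0% higher with TRPV3 (log2 fold change 0.44, SE 0.09, 95% interval 0.24 to 0.65). That of HSPA1B was 36.2% higher (log2 fold change 0.44, SE 0.07, 95% interval 0.27 to 0.60). Neither passed the limma threshold over all genes. TRPV3 replicate 1 was the highest library for HSPA1A and the lowest of its group for HSPA1B. Without it the log2 fold changes were 0.37 for HSPA1A and 0.45 for HSPA1B.

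Their coding bases are identical at 99.8%, and 71.3% of the 50-base stretches of HSPA1A occur in HSPA1B, so the division of reads between the copies is uncertain. The ratio of HSPA1A to HSPA1B reads was 1.96, 1.62 and 1.66 in TRPV3 libraries and 1.75, 1.72 and 1.74 in mock libraries. Their sum depends little on that division if each shared read was counted 1 time, but the counting step was not given. The sum was 147, 135 and 135 FPKM in TRPV3 libraries, against 102, 103 and 100.3 FPKM in mock libraries, a ratio of 1.37. HSPA6 was equal to 12.9%, 12.4% and 13.1% of HSPA1A FPKM in TRPV3 libraries and to 1.22%, 1.11% and 0.940% in mock libraries. HSPA6 coding bases matched those of 5 other members at 72.0% to 80.7%.

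HSPA8 encodes HSC70, the constitutive chaperone of the cytosol (chr11:123057489-123063230, minus strand). It was the most abundant member in each library, at 383, 326 and 331 FPKM with TRPV3 and 308, 288 and 287 FPKM with mock. The groups did not overlap, although TRPV3 replicate 2 and mock replicate 1 were 17.7 FPKM apart. The mean was 17.7% higher with TRPV3 (log2 fold change 0.23, SE 0.10, 95% interval -0.01 to 0.47). TRPV3 replicate 1 was the highest, and without it the log2 fold change was 0.16. Quantile normalization gave 0.06. The table lists 18 processed pseudogenes of the family by name, 17 of them copies of HSPA8. None had more than 6 reads in a library, and 6 had none at all.

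HSPA2 and HSPA1L are best known from the testis, where HSPA2 is needed for male germ cell development. HSPA2 (chr14:64535905-64546173, plus strand) was at 1.67, 1.66 and 1.52 FPKM in TRPV3 libraries and 1.90, 1.60 and 1.41 FPKM in mock libraries. The groups overlapped, and the log2 fold change was -0.01 (95% interval -0.25 to 0.23). It was -0.02 without TRPV3 replicate 1 and -0.07 without mock replicate 3. HSPA1L (chr6:31809619-31815065, minus strand) had 25, 43 and 38 reads in TRPV3 libraries and 29, 33 and 28 reads in mock libraries. It was under the filter and its read ratio was 1.16, with a counting interval of 0.864 to 1.55. HSPA1L thus overlapped between groups while HSPA1A, which starts on the opposite strand 398 bases away, did not. At these low read counts the HSPA1L interval includes the HSPA1A read ratio of 1.37, so the genes cannot be said to differ.

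HSPA4 and HSPA4L belong to the HSP110 branch, whose proteins act mainly as nucleotide exchange factors for HSP70. Their coding bases are identical at 67.5%. HSPA4 (chr5:133051962-133106449, plus strand) was at 72.7, 70.5 and 69.6 FPKM in TRPV3 libraries and 69.9, 67.8 and 63.5 FPKM in mock libraries. The groups overlapped narrowly, and the log2 fold change of 0.08 (95% interval -0.10 to 0.26) became -0.04 under quantile normalization and -0.02 under TPM scaling. The median of all tested genes under TPM scaling was -0.08, so HSPA4 stayed above it there. HSPA4L (chr4:127781821-127840733, plus strand) was at 3.21, 4.56 and 4.18 FPKM in TRPV3 libraries and 4.75, 4.15 and 3.91 FPKM in mock libraries. Its lowest value was in TRPV3 replicate 1, the library with low values for long genes, and its merged exons are the longest of the family at 11621 bases. The log2 fold change was -0.09 (95% interval -0.38 to 0.21). It was 0.03 without that library and 0.02 with the gene-length trend removed.

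HSPA14 encodes a ribosome-associated HSP70 that works with a J-domain partner on nascent chains. The gene model with the longer genomic span (ENSG00000187522) was at 9.28, 7.21 and 7.54 FPKM in TRPV3 libraries and 6.91, 7.60 and 7.24 FPKM in mock libraries. The second model (ENSG00000284024) was at 4.70, 6.06 and 5.63 FPKM in TRPV3 libraries and 5.23, 5.39 and 4.63 FPKM in mock libraries. Both overlapped between groups, with log2 fold changes of 0.12 (SE 0.10) and 0.08 (SE 0.11). TRPV3 replicate 1 was the highest of its group in the first model and the lowest in the second, and without it the values were 0.02 and 0.17. Without mock replicate 3 the second model was at 0.03. The models share 460 exonic bases, so reads there cannot be assigned to one of them. The longest coding transcript has 14 exons and 1530 coding bases in the first model, and 5 exons and 1086 coding bases in the second. The second model is counted here by its symbol, and whether it encodes an HSP70 was not tested.

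**Figure D1:**
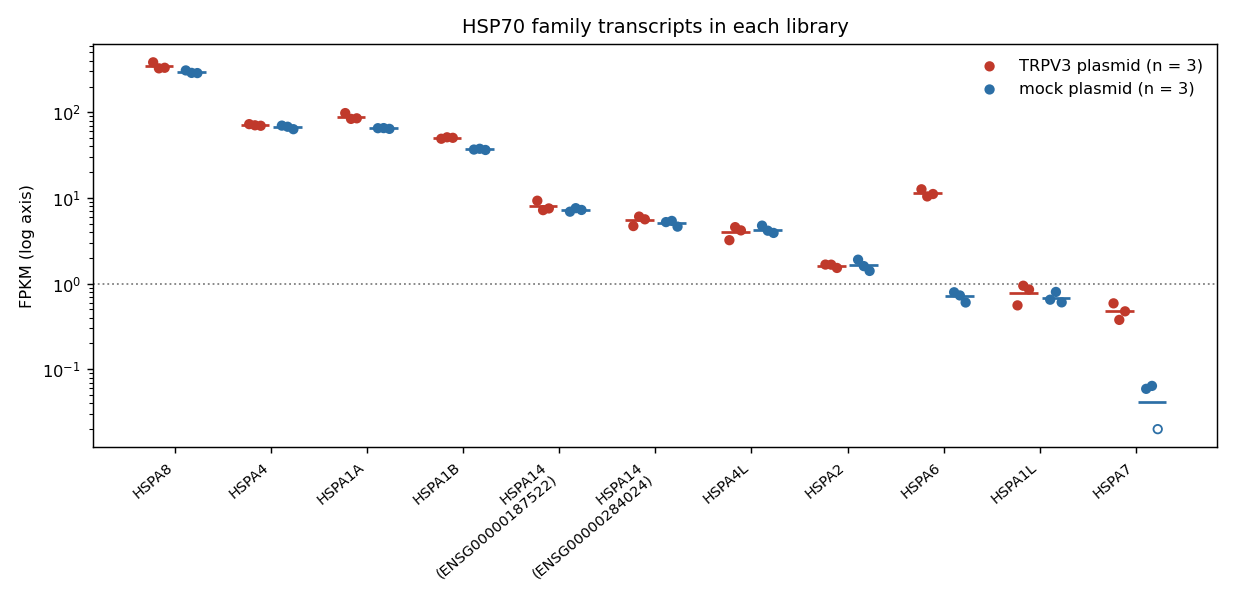
FPKM of each HSP70 family row in each library on a log axis, TRPV3 plasmid in red and mock plasmid in blue; bars are means of 3 libraries, the dotted line is 1 FPKM and the open point is the mock library in which HSPA7 had 0 reads, drawn at the bottom of the axis. HSPA6 lies at 10.4 to 12.6 FPKM with TRPV3 and at 0.602 to 0.792 FPKM with mock, while the order of the other genes by level is the same in both groups except for HSPA1A and HSPA4.

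By mean level in TRPV3 libraries the order was HSPA8, HSPA1A, HSPA4, HSPA1B, HSPA6, HSPA14 (ENSG00000187522, then the second model), HSPA4L, HSPA2, HSPA1L and HSPA7, and of the neighbours in it only HSPA1L and HSPA7 had overlapping ranges. In mock libraries HSPA4 stood above HSPA1A, and HSPA6 came between HSPA2 and HSPA1L. Overlapping neighbours there were HSPA4 with HSPA1A, the second HSPA14 model with HSPA4L, and HSPA6 with HSPA1L.

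Of the 11 rows 9 passed the filter and were tested. With limma across 12177 genes 1 of these 9, HSPA6, was called, against 5 genes or 0.0411% of all tested genes. The other genes called were TRPV3, CXCL8, SERPINB2 and IL6, all higher with TRPV3. Among the 9 tested rows, 4 (HSPA6, HSPA1A, HSPA1B and HSPA8) had every TRPV3 library above every mock library, against 9.49% of all tested genes, and 0 had every TRPV3 library below, against 5.39%. Without TRPV3 replicate 1 limma called 2 rows, HSPA6 and HSPA1B, against 0.0657% of all tested genes. Limma-voom on recovered reads, also without that library, called 3 rows higher with TRPV3 (HSPA6, HSPA1A and HSPA1B), against 0.567% of all tested genes called higher. Without both TRPV3 replicate 1 and mock replicate 3, limma called the same 2 rows as without TRPV3 replicate 1 alone. Over all 12156 genes then tested it called 9, of which 8 were higher with TRPV3. That alternative was chosen after seeing the data. Because the family was chosen on this contrast, these shares are the background and nothing more is read from them.

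**Figure D2:**
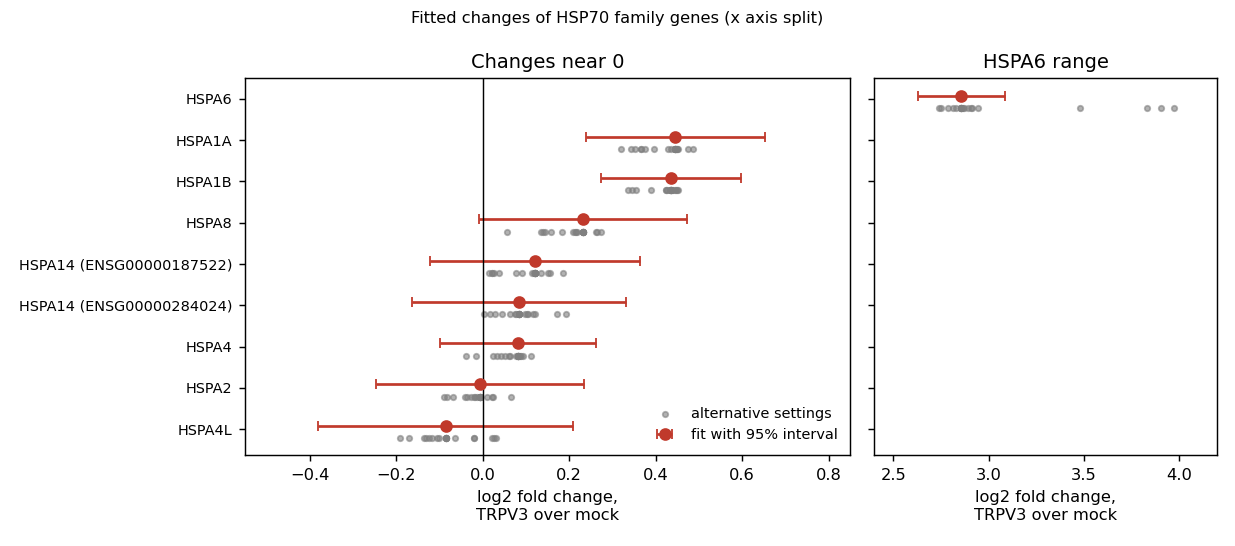
Fitted log2 fold change of FPKM + 1, TRPV3 over mock, for the 9 tested rows, with the 95% interval (red) and the value under each alternative setting (grey); the x axis is split and its parts have different scales. HSPA6 is at 2.86, HSPA1A and HSPA1B are both at 0.44, and the intervals of the other 6 rows include 0.

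Summed over all rows the family stood at 635, 562 and 567 FPKM in TRPV3 libraries, against 500.2, 479 and 469 FPKM in mock libraries. The ratio of means was 1.22 on FPKM and 1.14 on TPM, and the groups did not overlap on either scale. HSPA8 made up 58.9% ± 1.26 of the sum with TRPV3 and 61.0% ± 0.738 with mock (SD, n = 3 each). HSPA6 made up 1.93% ± 0.0707 with TRPV3 and 0.146% ± 0.0158 with mock. Of the mean difference of 105 FPKM, HSPA8 held 49.5%, HSPA1A 22.8%, HSPA1B 12.6% and HSPA6 10.1%. The gene with the largest fold change thus carried the fourth-largest part of the added transcript level. Family reads were 0.214% to 0.262% of all reads in a library.

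**Figure D3:**
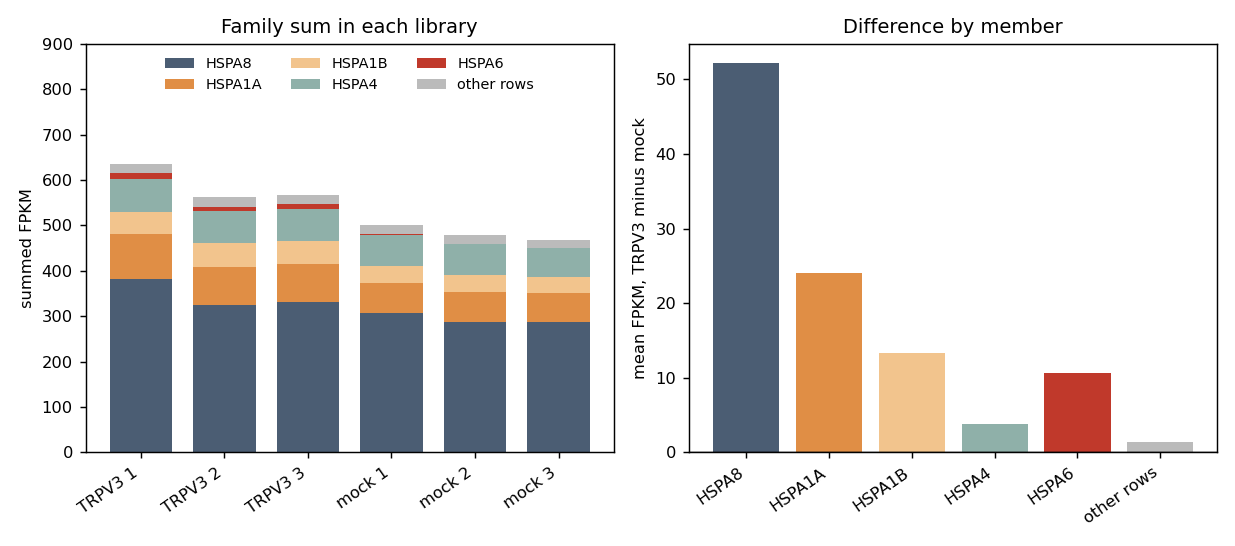
Summed FPKM of the family in each library, stacked by member (left), and the difference in mean FPKM, TRPV3 minus mock, by member (right); other rows are HSPA14 (both models), HSPA4L, HSPA2, HSPA1L and HSPA7. HSPA8 is the largest block in each library and holds 49.5% of the difference, and HSPA6 is a thin band with 10.1% of it.

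HSP70 partners, heat shock factors, known HSF1 targets, HSP70 genes outside the cytosolic group, and metal, oxidative and proteotoxic stress genes were read from 7 lists. The pooled counts thus mix HSP70 partners with genes of other stress responses. Of 68 such genes 62 passed the filter and limma called 0 of them. An unadjusted limma p under 0.05 was found for 7 of the 62, beside 546 of all 12177 tested genes. Limma-voom called 0 with all libraries, beside 4 of 12177 tested genes, and 3 without TRPV3 replicate 1, beside 72 of 12176. The fitted change was above 0 for 54 of the 62 genes (87.1%), against 53.0% of all tested genes, with a median log2 fold change of 0.14 against 0.01. Without TRPV3 replicate 1 it was above 0 for 47 of 61 genes (77.0%, against 53.6% of all genes), and the median was 0.07 against 0.01. TPM scaling gave 42 of 62 (67.7%, against 32.9%), with a median of 0.04 against -0.08. In 23 of the 62 the TRPV3 libraries all lay above the mock libraries, and in 0 all below, beside the 9.49% and 5.39% of all tested genes given above.

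Known HSF1 targets outside the family had 21 tested genes, 21 of them above 0, with a median of 0.17 that was 0.08 without TRPV3 replicate 1 and 0.07 under TPM scaling. AHSA1, an HSP90 co-chaperone gene, was at 56.5, 38.7 and 41.9 FPKM with TRPV3 and 36.0, 37.4 and 35.4 FPKM with mock. Its groups did not overlap, TRPV3 replicate 1 was the highest, and the log2 fold change was 0.31, or 0.15 without it. HSP90AA1, the inducible HSP90, averaged 439 ± 16.6 FPKM with TRPV3 and 412 ± 14.5 FPKM with mock (SD, n = 3 each). Changes in this list were smaller than that of HSPA1A, and none approached that of HSPA6. HSF1 itself averaged 34.5 ± 4.42 FPKM with TRPV3 and 32.5 ± 1.78 FPKM with mock. Its groups overlapped, and its log2 fold change was 0.08, or -0.02 without TRPV3 replicate 1.

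J-domain co-chaperones had 8 of 8 tested genes above 0 (median 0.14, and 0.11 without TRPV3 replicate 1). DNAJB1, the main stress-inducible HSP40, averaged 83.0 ± 3.69 FPKM with TRPV3 and 70.2 ± 1.16 FPKM with mock (log2 fold change 0.24, limma adjusted p = 0.755). DNAJA1, another cytosolic HSP40, averaged 91.6 ± 10.2 FPKM with TRPV3 and 75.7 ± 5.48 FPKM with mock. Exchange factors had 6 of 7 above 0 (median 0.11, 0.06 without TRPV3 replicate 1 and 0.03 under TPM scaling). BAG3, which links HSP70 to autophagy, averaged 70.0 ± 2.52 FPKM with TRPV3 and 59.0 ± 4.48 FPKM with mock. Adaptors to HSP90 had 7 of 8 above 0 (median 0.10, 0.07 without TRPV3 replicate 1, -0.04 under quantile normalization and 0.01 under TPM scaling). Heat shock factors and their regulators had 4 of 6 above 0 (median 0.04, 0.02 without TRPV3 replicate 1 and -0.05 under TPM scaling). EP300, an acetyltransferase of HSF1, was at 3.96 FPKM in TRPV3 replicate 1, at 9.71 FPKM or more in the other 2 TRPV3 libraries, and at 11.3, 9.93 and 8.77 FPKM with mock.

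HSP70 genes outside the cytosolic group had 3 of 5 above 0 (median 0.01, 0.06 without TRPV3 replicate 1 and -0.09 under TPM scaling). HSPA5, which encodes the endoplasmic reticulum chaperone BiP, was at 333, 292 and 282 FPKM with TRPV3 and 221, 229 and 232 FPKM with mock. Its groups did not overlap, but with a log2 fold change of 0.41 ± 0.10 (SE) it missed the threshold over all genes (limma adjusted p = 0.652). Without TRPV3 replicate 1 its log2 fold change was 0.34 (limma adjusted p = 0.096). Limma-voom without that library called 1 gene of this list, beside 72 of 12176 tested genes. HSPA9, the mitochondrial HSP70, averaged 76.3 ± 1.35 FPKM with TRPV3 and 73.9 ± 5.50 FPKM with mock. Metal, oxidative and proteotoxic stress genes had 12 of 14 above 0 (median 0.20, 0.11 without TRPV3 replicate 1 and 0.12 with the gene-length trend removed). Among them PPP1R15A, a phosphatase subunit of the integrated stress response, averaged 19.9 ± 1.97 FPKM with TRPV3 and 13.3 ± 1.35 FPKM with mock (log2 fold change 0.55, limma adjusted p = 0.374). MT2A, a metallothionein, was at 1251, 624 and 666 FPKM with TRPV3 and 577, 614 and 544 FPKM with mock, with its highest value in TRPV3 replicate 1. Its log2 fold change was 0.48, or 0.16 without that library.

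**Figure D4:**
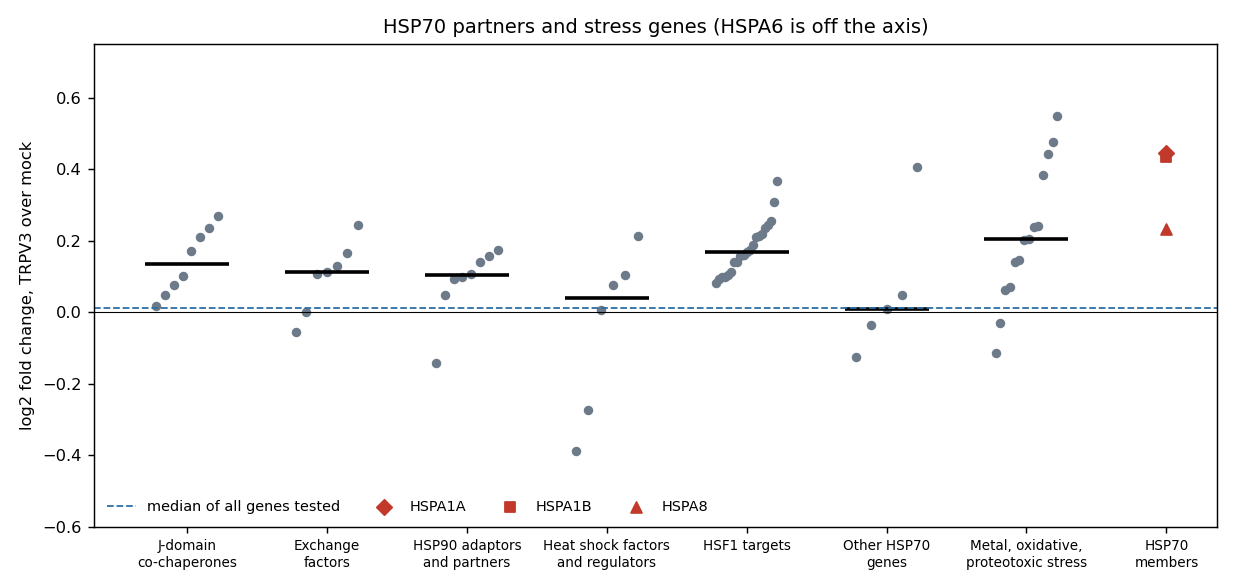
Fitted log2 fold change of FPKM + 1, TRPV3 over mock, of each tested gene (points) in 7 lists of HSP70 partners and stress genes, with list medians (black bars), the median of all tested genes (dashed line) and 3 family members (red). List medians lie between 0.01 and 0.20. The members drawn are HSPA1A and HSPA1B at 0.44 and HSPA8 at 0.23, and HSPA6 at 2.86 is beyond the axis. These are the tested members whose groups did not overlap, and the tested rows not drawn lie between -0.09 and 0.12. Among single list genes, PPP1R15A (0.55) and MT2A (0.48) lie above HSPA1A and HSPA1B.

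Tested genes outside the family were compared with HSPA6 over the 6 libraries. The measure was the root mean square difference of log2(FPKM + 1), centred on the mock mean. The closest was CXCL8, a neutrophil chemokine, at 0.902. It was at 5.46, 4.30 and 3.95 FPKM with TRPV3 and 0.876, 0.705 and 0.941 FPKM with mock. The next were AL355032.1 (1.04), MIR3682 (1.17), the chemokine gene CXCL1 (1.21) and AC113346.1 (1.21). MIR3682 and AC113346.1 rested on 56 and 55 reads over all 6 libraries. Of the 5 genes, limma called only CXCL8. All 5 had higher TRPV3 values, which the measure selects for. No gene of the partner and stress lists was among them. That follows from the measure, since their largest log2 fold change was 0.55 (PPP1R15A), against 2.86 for HSPA6. HSP70 members were left out of this search.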

How the data were processed

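RNA of SZ95 cells was isolated with TRIzol and sequenced from NEBNext Ultra libraries, per the labels' protocols. The submitters' processing notes name HISAT2 2.0.5 and hg38. The counting step, with its use of strand, was not given in the sources used here. The deposited table gives FPKM per gene, per the file headers, on gene models that match GENCODE 29 for all 58735 genes. The FPKM were whole multiples of 1 read for 100% of values (tolerance 0.02 reads), so reads were recovered. At this depth 3 reads, the count that 0 still allows, equal 0.165 to 0.185 FPKM for a 1 kb gene, which covers counting error only.

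The 12177 genes that averaged 1 FPKM or more were tested on log2(FPKM + 1) with limma 3.58.1 in R 4.3.3, trended empirical Bayes and Benjamini-Hochberg adjustment over all of them, called at an adjusted p under 0.05. Fold changes on this scale understate those of low genes. Limma-voom on recovered reads was an alternative. Named were each member, from each partner list the called genes or the 2 with the largest change and the 2 with the highest level, HSPA5, HSPA9, TRPV3, the nearest neighbours and the 5 genes most like HSPA6; values of a selection are printed, and 1 gene is not reported here. Members and lists were chosen with earlier results of these data known. Deviations from the group means, correlated across genes, gave -0.27, -0.04 and -0.17 for same-numbered replicates. The numbers thus gave no sign of pairing, which 3 libraries per group cannot exclude. Python 3.11.15 with matplotlib 3.10.9 made the figures.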

Additional observations from a re-analysis of the deposited data

How the results depend on the processing

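The log2 fold change of HSPA6 lay between 2.74 and 3.97 over the 21 alternatives and was past the limma threshold in all 21. The number of members called stayed at 1 except for 2 without TRPV3 replicate 1, 3 with limma-voom without that library, and 2 without both TRPV3 replicate 1 and mock replicate 3, an alternative chosen after seeing the data; leaving out 1 library at a time gave 1 to 2. Genes called over the whole table numbered 5, but 6 with a pseudocount of 0.1 FPKM, 4 under quantile normalization and with limma-voom on all libraries, 2 with no filter, 3 with a filter of 5 FPKM, 2 with a 2-fold minimum, 72 with limma-voom without TRPV3 replicate 1, and 9 without both libraries; leaving out 1 library at a time gave 2 to 8. With the replicate number as a block 3 genes were called, HSPA6 among them, and no other member. The numbers gave no sign of pairing the samples. Genes called from the partner and stress lists were 0, and 3 with limma-voom without TRPV3 replicate 1. The family sum ratio of 1.22 was 1.14 on TPM and 1.17 to 1.25 with 1 library left out. HSPA1A and HSPA1B stayed above 0 under all alternatives (0.32 to 0.49 and 0.34 to 0.45), as did HSPA8 (0.06 to 0.27) and both HSPA14 models. Alternatives that change only the filter, trend, block or fold minimum leave a fold change as it was by construction. Median-of-ratios scaling left it nearly the same, so counts over alternatives include these repeats. HSPA4 turned negative in 2 of 21, and HSPA2 and HSPA4L turned positive in 4 and 3 of 20. The cause was not tested. For HSPA4 1 of the 2 was TPM scaling, where the median of all tested genes was -0.08. Depth limits HSPA7 and HSPA1L, which rest on few reads, and 3 libraries per group limit all other members.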
